A study of Zea mays with 16 samples.

Results

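Whole anthers of male-sterile ms32 mutant maize were compared with anthers of their fertile siblings on 2 two-colour Agilent arrays with the dyes swapped. These arrays carried 4 of the 16 samples of the series, 2 from ms32 mutants and 2 from their fertile siblings. They were chosen by their labels, which give replicate 3 to both mutant samples and replicate 1 to both sibling samples. The other 12 samples, on 6 arrays, were 4 further ms32 mutant samples, 6 ms23 mutant samples and 2 ms23 fertile sibling samples. All anthers measured 1.5 mm and, per the labels' protocols, came from field-grown plants. Per the design text of the series, each such comparison had 2 biological replicates, but the sample titles give each side a single replicate number. The spread behind the p-values was pooled over all 8 arrays of the series. The part from the 2 arrays of this comparison may therefore be technical, between 2 hybridisations, and not between plants. The other 6 arrays were likewise dye-swapped pairs, each with a single replicate number per side. Within a comparison, only the arrays with both mutants held more than 1 replicate number. Most of the pooled spread may thus be technical as well. Alleles, and whether the fertile siblings were heterozygous, are not given in the sources used here.

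The ms32 gene encodes a basic helix-loop-helix transcription factor. It acts in the tapetum, the innermost layer of the anther wall, which surrounds the meiotic cells, feeds them and later supplies material for the pollen wall. In ms32 mutants the layer does not differentiate normally and the plants make no functional pollen. The ms23 gene encodes a related factor of the same cell layer that acts earlier. Whole anthers hold epidermis, endothecium, middle layer, tapetum and meiotic cells together, so fewer cells of a type and less RNA per cell cannot be told apart in these values.

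Most transcripts on this array carry only the name of an assembled transcript (TC followed by a number) or of a single sequenced cDNA (such as DN227504). Of 39174 target names, 2 matched the RefSeq gene table, AM1 and AI676903, and a few more name a gene directly. Of 24 lists of genes drawn up for anthers, 22 had no measured member by name, among them the lists of tapetum regulators, pollen wall genes and photosynthesis genes. The probe for ms32 itself was not analysed here, so the genotype of the libraries was not checked against its own transcript, and the tissue could be checked only through AM1. The results below are therefore given by transcript name.

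The 4 libraries were alike in brightness. Median spot intensities were 123.5 and 116 units in the mutant samples and 120 and 116 units in the sibling samples. The share of probes well above background was 84.7% and 81.2% in the mutant samples, against 82.6% and 83.4% in the sibling samples, and no spot of these samples was saturated. The number of arrays limits the precision.

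The difference between ms32 mutant and fertile anthers was mainly a loss of transcripts. Of 39976 probes tested with limma, 182 were lower in the mutants (0.455%) and 14 were higher (0.035%) at a Benjamini-Hochberg adjusted p under 0.05. All 196 had the same sign on both arrays. The fallen probes stood for 179 target names and the risen probes for 14. The middle of the falls lay between log2 ratios of -3.52 and -1.39, with a median of -2.47, while the rises ranged from 0.84 to 2.98 with a median of 1.16. The median over all probes tested was 0.000644.

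Size separated the directions more clearly than number. At least 4-fold changes were called for 109 falls and 1 rise, and at least 16-fold changes for 27 falls and 0 rises. Certainty was also unequal: 72 falls and 0 rises passed an adjusted p under 0.01, and 15 falls passed 0.001. Without any test, 124 of 39709 probes measured on both arrays were at least 4-fold lower in the mutant on each, and 11 were at least 4-fold higher on each. Another 13 probes moved 4-fold or more in opposite directions on the 2 arrays. At 32-fold the counts were 11 lower, 0 higher and 2 opposite. Falls of any size and rises of any size on both arrays each made up 22.1% of probes, so the excess of falls belonged to the large changes.

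Across all probes the ratios of the 2 arrays were weakly related, with a Pearson correlation of 0.132 over 39709 probes, or 0.313 once each probe's dye effect was removed. The dye effect was estimated in part from these 2 arrays, so part of the higher value follows from the removal itself. The 2 arrays share their RNA labels and differ in dye orientation. Among the called falls the 2 arrays differed by a median of 0.40 on the log2 scale, against 0.27 over all probes tested. For 31 falls the arrays differed by more than 1, and the widest disagreement was 2.53.

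**Figure D1:**
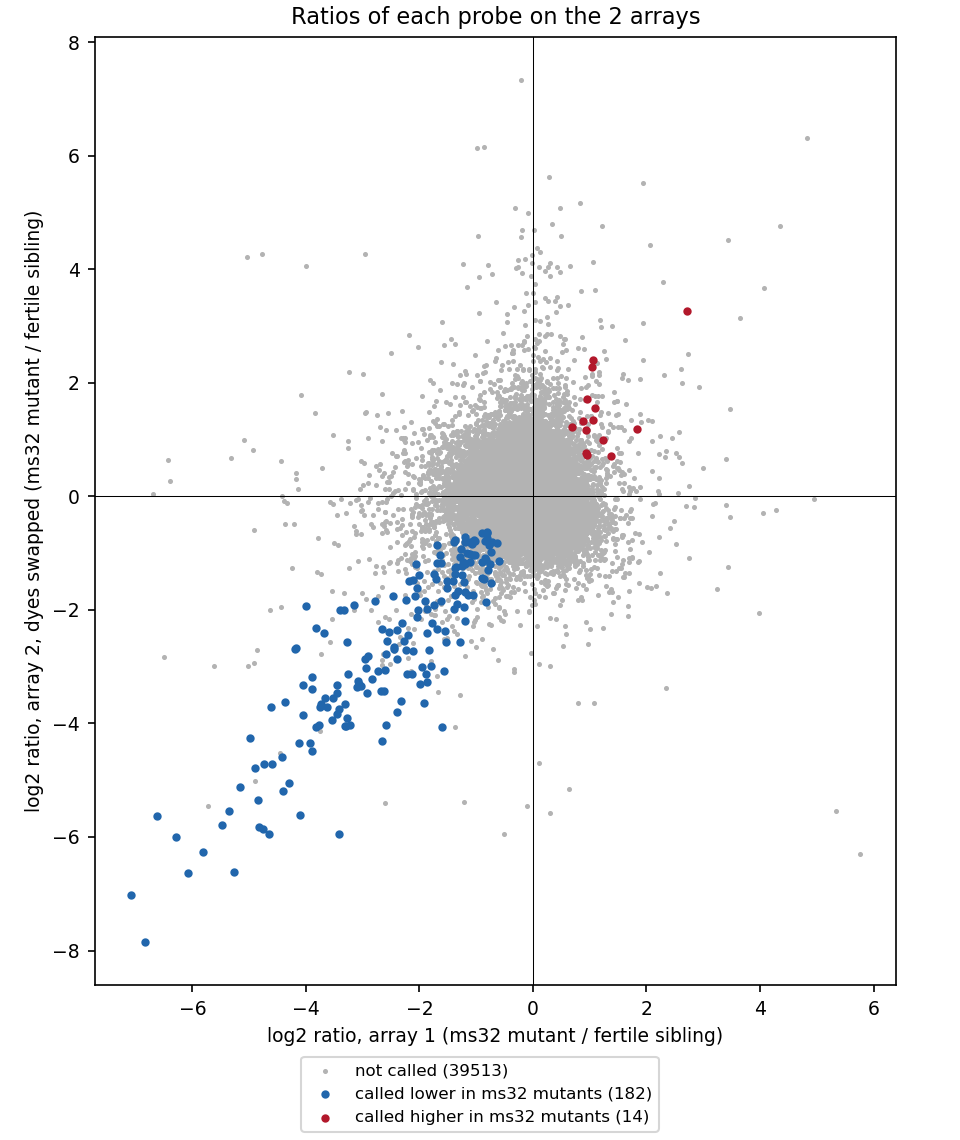
Each point is a probe, with its log2 ratio of ms32 mutant over fertile sibling on array 1 (horizontal axis) and on the dye-swapped array 2 (vertical axis). The 182 called falls run along the diagonal down to ratios near -7 on both arrays, while the 14 called rises stay close to the cloud of uncalled probes.

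DN227504 showed the largest fall. Its normalized log2 intensity was 8.15 and 6.22 in the mutant samples, against 14.98 and 14.08 in the siblings. The groups were 5.93 log2 units apart at their nearest values. The log2 ratio was -7.35 ± 0.26 (SE; limma adjusted p = 0.000472), with -6.84 and -7.85 on the 2 arrays. Each SE, here and below, comes from the model of all 8 arrays and is not the spread of these 2 arrays. AW520047 had levels of 6.09 and 6.63 in mutant samples and 13.17 and 13.65 in siblings, a ratio of -7.05 ± 0.17 (limma adjusted p = 0.000199). Its ratios on the arrays, -7.08 and -7.02, were almost identical.

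TC307051, measured by 2 probes, was the next largest. The stronger probe read 7.72 and 7.97 in mutant samples against 13.81 and 14.60 in siblings, a ratio of -6.36 ± 0.19, and the other probe gave -4.79 ± 0.15 (limma adjusted p = 0.000357 and 0.000386). Both probes placed the mutants far below the siblings, with sizes that differed by more than their errors. TC291756 had the smallest p of all probes (limma adjusted p = 0.000135), with levels of 6.96 and 6.37 in mutant samples and 12.77 and 12.63 in siblings. TC297345 read 7.67 and 6.07 in mutants and 13.95 and 12.07 in siblings, a ratio of -6.14 ± 0.16.

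On the sibling arrays some falls left a signal well above the floor in the mutants. TC309744 had 8.68 and 10.36 in the mutant samples, against 15.30 and 15.99 in the siblings, with a ratio of -6.13 ± 0.36. TC307451 had 10.74 and 9.22 in the mutant samples, against 15.57 and 15.04 in the siblings, with a ratio of -5.32 ± 0.24. TC302619 had 8.68 and 8.01 in the mutant samples, against 12.78 and 13.61 in the siblings, and the 4 further ms32 mutant samples described below were alike at 7.82, 8.24, 8.89 and 8.13. BM501035, TC302633 and TC297616 completed the 10 largest falls, with ratios of -5.95, -5.63 and -5.45. The 5 next falls, TC283808, TC291748, CD963121, TC308375 and TC302619, had ratios from -5.31 to -4.85.

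The size of the deepest falls depended on a floor set by background. Of these 15 probes, 12 were well above background in both mutant samples and 3 (TC297345, BM501035 and TC302633) in only 1 of them. With the scanner software's own processed signals, which carry no added offset, the ratios were wider: DN227504 had -9.01, AW520047 had -8.98 and TC302633 had -9.59. Over all 182 called falls the median was -3.51 on that scale, and all 182 were lower on both arrays, as all 14 rises were higher.

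**Figure D2:**
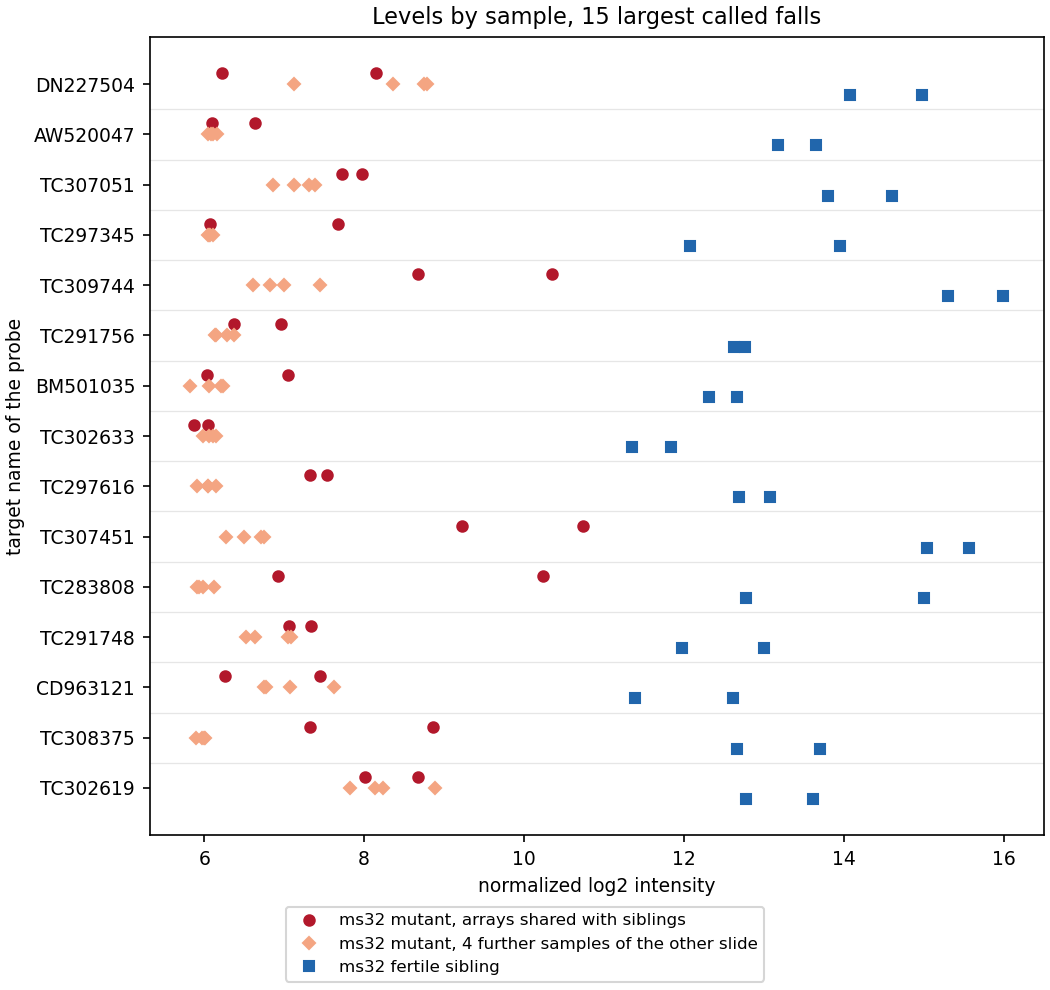
Normalized log2 intensity (horizontal axis) of the 15 largest falls in the 2 ms32 mutant samples that shared arrays with siblings, in the 4 further ms32 mutant samples and in the 2 fertile sibling samples. In every row all 6 mutant samples lie left of both siblings, and in several rows the mutants of the shared arrays lie right of the further mutants.

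The 4 further ms32 mutant samples, labelled replicates 1 and 2, had no part in the ratios to siblings and were hybridised on the other slide with ms23 mutants. DN227504 read 8.75, 8.79, 7.12 and 8.36 in them, and AW520047 read 6.16, 6.09, 6.11 and 6.05, all far below the sibling values above. For 171 of the 181 called falls with a level in every sample, all 4 were below both siblings, a pattern seen in 9.73% of 38980 probes. For 13 of the 14 rises all 4 were above both siblings, against 7.36% of probes. No called probe had the opposite pattern. The sibling values are the ones that entered the ratios and the slides differ, so these counts repeat the mutant side of the comparison and not the sibling side. The further samples also entered the pooled spread behind the p-values, which helped decide the calls. The counts among called probes are therefore not a separate test against the shares of all probes.

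At some falls the further mutants were much lower than the mutants beside the siblings. Over the called falls the median gap was 0.115 log2 units. TC307451 read 6.50, 6.27, 6.75 and 6.71 in the further mutants, and TC309744 read 6.999, 6.61, 7.44 and 6.83, which is 1.23 to 4.48 log2 units under the mutant samples of the sibling arrays. TC283808 read between 5.91 and 6.13 in them, against 10.24 and 6.92 on the sibling arrays. Such gaps of over 1 log2 unit occurred in 19 of the 181 falls with a level in every sample, in 14 of the 65 falls of at least 8-fold, and in 1.11% of all probes tested. The reverse gap occurred in 3 falls and in 0.813% of probes. The ms23 mutants of the sibling slide read 10.2 and 10.4 for TC307451, 14.4 and 13.7 for TC309744, and 7.5 and 7.8 for TC283808. On the other slide their log2 ratios to the ms32 mutants were 0.02, 0.93 and 0.02. At these transcripts the ms23 mutants thus showed such a gap between slides as well. Sibling RNA in the ms32 mutant samples of the sibling arrays and a difference between slides or replicates were not tested.

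Of all 42034 probes, 122 were well above background in both sibling samples and in neither mutant sample, and 130 showed the reverse. Called falls made up 5 of the first set and called rises 0 of the second. TC296710 was the clearest of the 5, at 5.87 and 6.13 in the mutant samples against 8.83 and 9.003 in the siblings, at least 7.54-fold lower (limma adjusted p = 0.00113). That bound sets the sibling mean against the mutants' measured signal or the lowest signal counted as well above background, whichever was higher. TC308116 was at least 2.73-fold lower and DN214953 at least 2.06-fold lower. TC315757 and CA400137 had bounds of 1.66-fold and 1.65-fold. In the 4 further ms32 mutant samples these transcripts were not all lost. TC296710 was well above background in all 4, at 5.96, 5.96, 6.22 and 6.37, levels still far under the siblings. TC308116 and CA400137 were above background in 2 of the 4 and TC315757 in 1. DN214953 was well above background in all 4, at 7.65, 7.81, 6.10 and 6.44, and 2 of these lay above its sibling levels of 7.08 and 7.20.

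Where a target had a further probe, the called change was mostly seen with 1 probe. Of the 26 called targets with 2 probes, 3 were called with both: TC307051, TC283057 (-1.44 and -3.07) and TC307265 (-3.45 and -3.43). In 7 of the others the uncalled probe was above background in at most 1 of the 4 samples. In 13 the uncalled probe was above background in all 4 samples. For 11 of these the called probe fell and the uncalled one had ratios from -0.67 to 0.40. For the other two the called probe rose, and TC287746 and TC305991 had 1.34 and 0.67 with the uncalled one. Both probes were tested for 24 targets, with the same sign in 18 and opposite signs in 6. TC280576 had -3.61 with the called probe and 0.04 with the other, and TC307525 had -4.63 and -0.67. A fall of such a target holds for its called probe, and which of the transcripts of a locus each probe binds was not tested.

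The 14 rises were smaller and nearer to the threshold. TC310653 rose most, with 10.42 and 12.61 in the mutant samples against 7.71 and 9.35 in the siblings, a log2 ratio of 2.98 ± 0.38 (limma adjusted p = 0.0496). Levels on array 2 were above those on array 1 by 2.19 in the mutant and 1.64 in the sibling, so the mutant sample of array 1 was only 1.07 above the sibling sample of array 2. A further probe of TC310653 gave 0.57 (limma adjusted p = 0.316). TC281861 had the smallest p of the rises (limma adjusted p = 0.0150), at 12.41 and 12.21 in mutants and 11.31 and 10.65 in siblings.

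TC287746, a target with 2 probes, had 13.50 and 14.27 in the mutant samples against 12.55 and 12.56 in the siblings. Its ratio was 1.33 ± 0.14 (limma adjusted p = 0.0281), and its further probe gave the same 1.34 but missed the threshold (limma adjusted p = 0.0850). The 4 further mutant samples were higher still, at 15.84, 15.29, 15.13 and 14.76. TC313690 and TC295318, with ratios of 1.73 and 1.66, had array ratios that differed by 1.36 and 1.25 log2 units. DN229926 had a ratio of 1.51, and the other 8 rises, TC295036, TC305991, TC313536, CO439957, TC282974, TC282991, TC312998 and DR793415, had ratios from 1.20 to 0.84. DR793415 was the rise whose further mutant samples, at 9.12 to 9.92, overlapped the siblings, at 9.21 and 8.85.

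**Figure D3:**
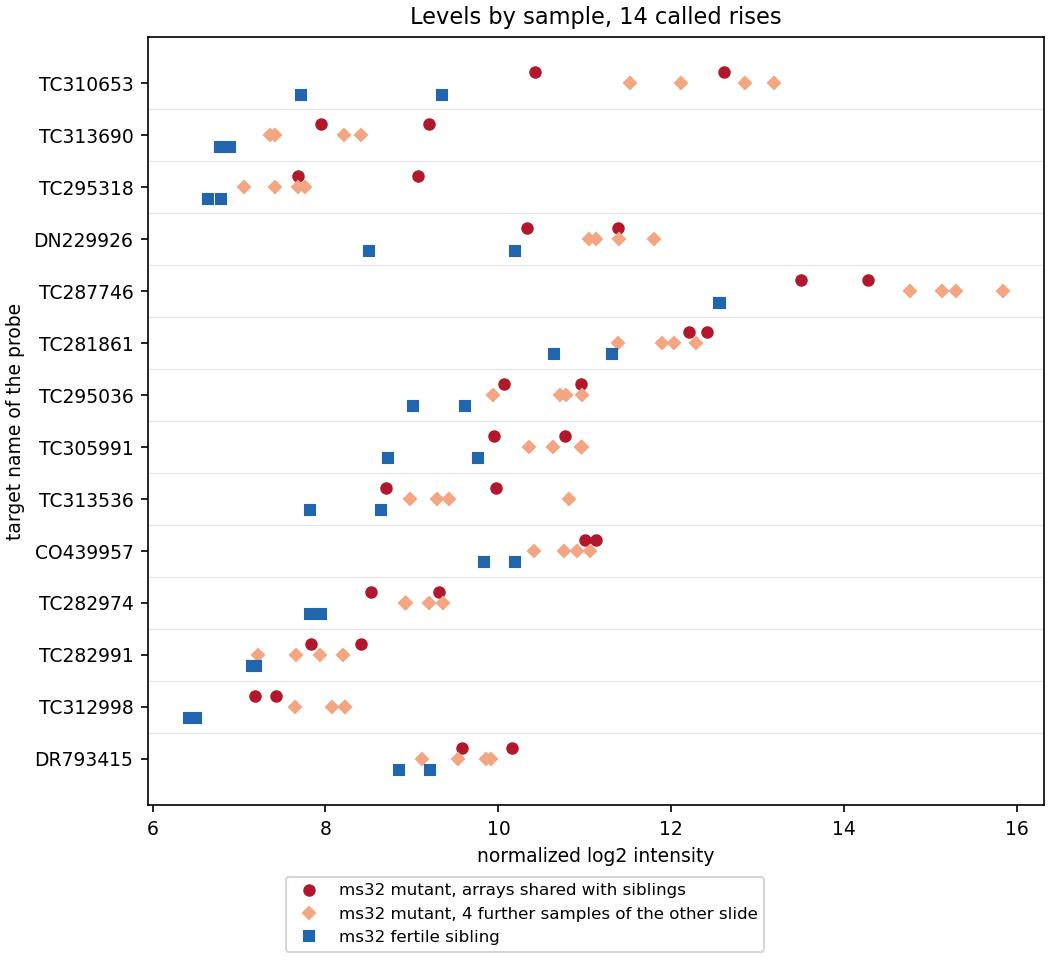
Normalized log2 intensity (horizontal axis) of the 14 called rises in the 2 ms32 mutant samples that shared arrays with siblings, in the 4 further ms32 mutant samples and in the 2 fertile sibling samples. The groups lie close together compared with the falls, and for DR793415 the lowest further mutant sample lies left of the higher sibling.

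The threshold fell among values that differed little. The called falls nearest to it were DR959500, TC303380, TC288163 and TC304810, with ratios of -0.86, -1.62, -1.83 and -1.50 (limma adjusted p = 0.05 for each after rounding). Just outside it were BM341492, TC307770, TC281628 and TC290060, with ratios of -0.98, -1.16, -1.60 and -1.51. At an unadjusted p under 0.05 there were 1948 lower and 1177 higher probes.

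The falls were in part shared with the ms23 mutants, which were compared with siblings of their own family on 2 other arrays. In ms23 mutants 0.928% of probes were called lower and 0.385% higher. Of the 182 ms32 falls, 103 were also called lower in ms23 mutants, which is 56.6% of the ms32 falls and 27.8% of the ms23 falls. Of the 15 largest falls, 14 were called in ms23 mutants, with ratios from -7.08 for TC283808 to -4.31 for TC307051. DN227504 was the exception. Of the 14 rises, 7 were called higher in ms23 mutants, including TC287746 with 2.74 ± 0.14 and TC312998 with 1.71 ± 0.11. Both comparisons took each probe's spread from the same model, so a probe with a small spread was favoured in both. These overlaps of calls can therefore not be set against the shares called over all probes. On the 4 arrays that set the mutants against each other, 11 of the 14 rises were called lower in the ms23 mutants, where 11.1% of probes were called lower. Of the 182 falls, 25 (13.7%) were called higher in ms23 mutants there and 19 (10.4%) lower, shares near the 9.51% of probes called higher and the 11.1% called lower.

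The ms32 effect differed from the ms23 effect at 12 probes (0.03%; limma adjusted p under 0.05), and 7 of these were among the ms32 falls. Limma made 0 such calls when dye-swapped arrays were averaged as a replicate block, when slide 2 was fitted alone and when each slide had its own dye term, with 2512, 2360 and 2401 probes at an unadjusted p under 0.05. It made 3 without slide 1 array 1, 1 without slide 1 array 3 and 0 without any other array (1432 to 3286 at an unadjusted p under 0.05). DN227504 had the widest difference, -8.71 ± 0.36 (limma adjusted p = 0.0128). It was low in ms32 mutants, as given above, while ms23 mutants had 15.24 and 14.83 against 13.52 and 13.81 in their siblings. TC296710 differed by -2.50 ± 0.19 (limma adjusted p = 0.0450). It was not well above background in the ms32 mutant samples of the sibling arrays, whereas ms23 mutants had 10.51 and 11.53 against 11.31 and 11.55 in ms23 siblings. These were the transcripts of the 7 that stayed high in ms23 mutants, and the arrays with both mutants gave direct ratios of ms23 over ms32 of 6.73 for DN227504 and 4.80 for TC296710 (limma adjusted p = 2.7e-05 and 1.4e-05).

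At the other 5 transcripts the ms32 siblings stood above the ms23 siblings, a difference that was not tested by itself. CF014920 had 9.31 and 9.999 in ms32 siblings but 5.90 and 5.94 in ms23 siblings, where it was above background in neither sample. TC309433 had 9.47 and 10.14 in ms32 siblings and 6.36 and 6.30 in ms23 siblings. TC295056 had 10.21 and 10.28 in ms32 siblings and 6.75 and 6.79 in ms23 siblings. TC303514 and BQ034568 followed the same order, with ms32 siblings at 9.34 and 9.16 and at 8.52 and 9.10, and ms23 siblings at 6.55 and 6.89 and at 6.07 and 6.54. The ms23 mutants were also low at these 5 transcripts, between 5.80 and 6.76 on the arrays with their siblings. At TC296710 the siblings stood apart the other way, at 8.83 and 9.003 in ms32 siblings and 11.31 and 11.55 in ms23 siblings. With 1 replicate number of siblings per family, family background, stage and mutation cannot be told apart here.

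**Figure D4:**
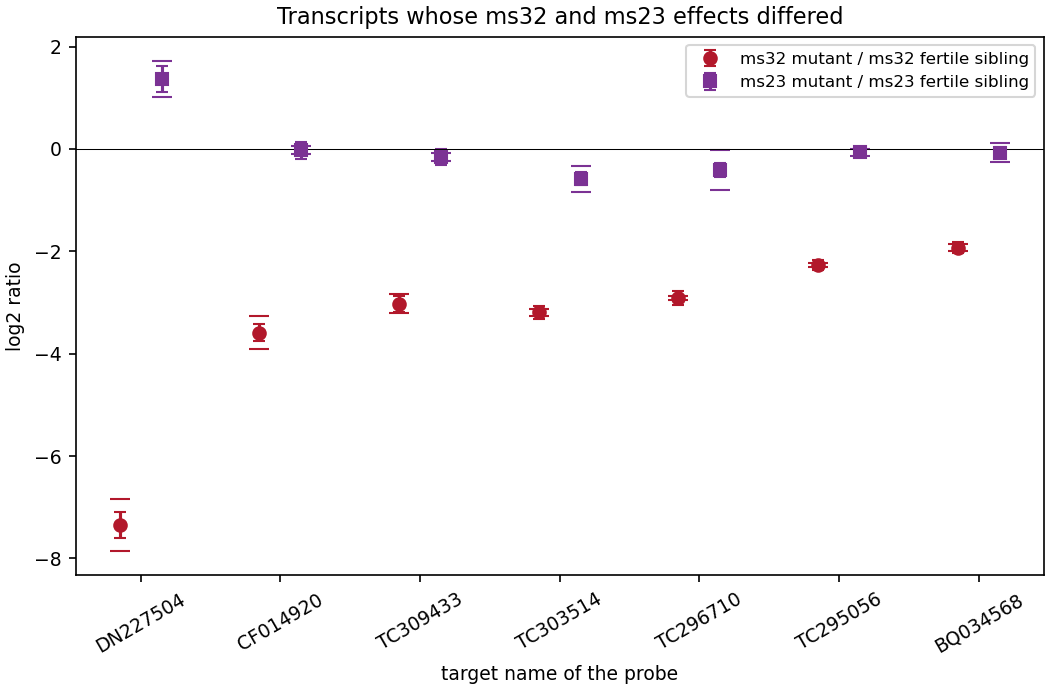
Log2 ratio of mutant over fertile sibling (vertical axis) in the ms32 family and in the ms23 family for the 7 ms32 falls whose effects differed. SE bars come from the model of all 8 arrays, and a dash marks each array. The ms32 ratios run from -7.35 to -1.93, and the ms23 ratios lie between -0.58 and 1.37.

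Few genes of meiosis could be followed by name. AM1 is required for entry into meiosis, and its 3 probes were well above background in all 4 samples. AM1 had, by the probe with the ratio nearest to 0, 8.98 and 8.02 in the mutant samples against 8.85 and 8.24 in the siblings, a ratio of -0.05 ± 0.21, and its other probes had -0.11 and -0.30. Together with probes for the cohesin subunits ZmSMC1, ZmSMC3 and ZmRAD21 and for ZmSGO1, which protects cohesion at centromeres, 17 probes were tested. Limma called 0 of them, and 1 had an unadjusted p under 0.05. Their ratios lay between -0.30 and 0.29, and their 95% confidence intervals reached from -0.78 to 0.86. The ZmRAD21 probes among them were dim, with levels from 5.86 to 6.97 in the 4 samples. One was well above background in 0 mutant samples and 1 sibling sample. The ratios of the ZmRAD21 probes ran from -1.13 to 0.35 in other settings, so the narrow range holds for the main setting only. With 0.455% of probes called lower, a count of 0 in 17 is near the background. Of 4 probes named for MuDR, the autonomous Mutator transposon, limma also called 0, with 1 at an unadjusted p under 0.05. MUDRA-21, MUDRA and MUDRB had ratios of 0.26, 0.21 and 0.22, each with the opposite sign in 1 of 21 other settings. The 2 arrays disagreed in sign for MUDRA-21 (0.84 and -0.32) and MUDRA (0.89 and -0.47), and gave 0.10 and 0.34 for MUDRB. MUDR-TIRA, with a ratio of -0.85, had 10.67 and 10.76 in the mutants against 11.66 and 11.47 in the siblings, and missed the threshold (limma adjusted p = 0.126).

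The large falls stayed called in most ways of processing the data, and the number of calls did not hold. Most of these settings counted dye-swapped arrays as independent, though such arrays shared their replicate numbers. The large falls also lost their calls when dye-swapped arrays were averaged. Of 21 alternative settings, the 15 largest falls stayed called in 17 to 19, and the 14 rises in 5 to 12, while all 29 kept their sign in each. The count of 196 was 67 without array 1 of the sibling comparison and 76 without array 2. It was 0 when dye-swapped arrays were averaged as a replicate block (3375 probes at an unadjusted p under 0.05) and 0 in a fit of the sibling slide alone (3057), settings that leave few degrees of freedom.

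**Figure D5:**
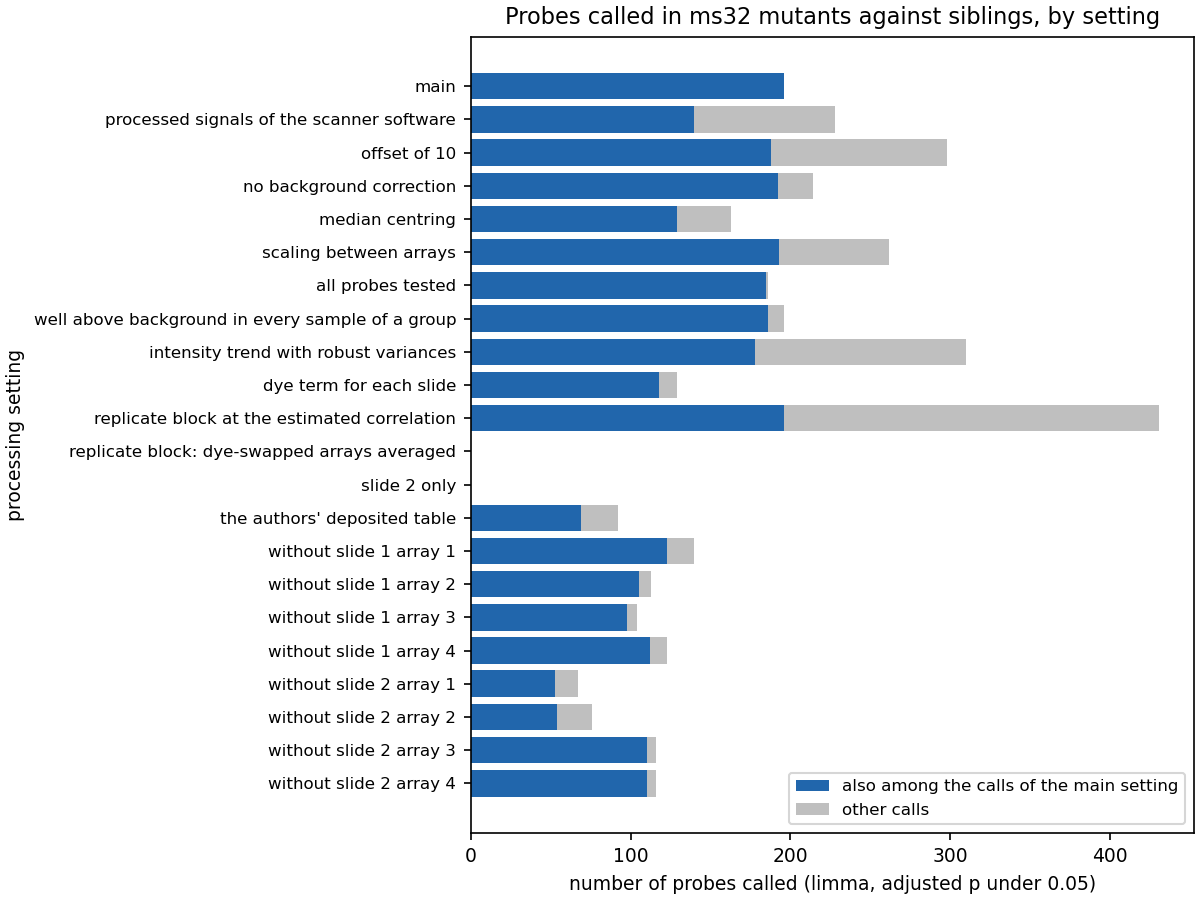
Number of probes called in ms32 mutants against siblings (horizontal axis) under each processing setting (vertical axis), split into those among the 196 calls and others. Counts run from 0 to 431, and leaving out an array of the sibling comparison (slide 2 arrays 1 and 2) gives 67 and 76.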

How the data were processed

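RNA was hybridised in pairs to 8 two-colour arrays on 2 slides. Per the labels' protocols, TRIzol RNA was treated with DNase, amplified and labelled. Images were quantified with Agilent Feature Extraction 10.5.1.1, per the file headers; the submitters' processing notes also name limma. The deposited scanner files give linear intensity per spot and dye, and other columns that mark outlier, saturated and clearly detected spots. The scale of the authors' deposited value table is linear; how it was normalized and centred is unknown here. Its columns had a median of 122.4 over the probes used, and correlated at 0.969 to 0.981 with the processed signals, on the log2 scale.

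From the scanner files, median intensities were corrected with normexp (offset 50, all spots) and log2 ratios were loess-normalized within arrays (limma 3.58.1, with statmod 1.5.0, in R 4.3.3). The 1417 control spots and 1322 outlier spots were left out. The test took probes that were clearly above background in 50% or more of any group's samples. All 8 arrays entered 1 limma model with a dye term (4 residual and 1.95 prior degrees of freedom) and Benjamini-Hochberg adjustment. Arrays sharing replicate numbers are dye-swapped pairs. Their block correlation was estimated at -0.277 and set to 0. Levels per sample were taken after quantile normalization of average intensities. The model was tested on simulated data. Of the called probes, the 15 lowest ratios, every rise, the 5 smallest p, those whose effects differed between families, those lost to background and those nearest the threshold were named, as were the uncalled probes that carry the name of a listed gene. Members, lists and rules were chosen with earlier results of these data known.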

Additional observations from a re-analysis of the deposited data

Results flagged for a closer look

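For 6 of the 29 named falls and rises, the highest of the 6 ms32 mutant samples stood apart from the others by Dixon's test at 95%. Chance passes that test in about 1 in 20 groups of independent values. The 6 samples were 3 replicate numbers over 2 slides, so 6 of 29 cannot be set against that rate. All 6 high values came from the 2 arrays that also held siblings. On array 1, TC297345 read 7.67 (nearest mutant sample 6.12), TC291756 read 6.96 (nearest 6.37), BM501035 read 7.05 (nearest 6.24) and TC283808 read 10.24 (nearest 6.92). On array 2, AW520047 read 6.63 (nearest 6.16) and TC295318, a rise, read 9.08 (nearest 7.76). The causes of these gaps were not tested.

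The ms32 effect minus the ms23 effect passed limma's test of the difference for 7 named falls. It was -8.71 for DN227504, -3.56 for CF014920, -2.87 for TC309433, -2.61 for TC303514, -2.50 for TC296710, -2.20 for TC295056 and -1.86 for BQ034568.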

How the results depend on the processing

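The count of 196 calls stayed within 1.5 times under processed signals, no background correction, median centring, scaling between arrays and both other filters on dim probes. The probes called were not all the same. Of the 196, 140 were called with processed signals and 129 with median centring. No background correction kept 192 of them, scaling 193, and the filters 185 and 186. It was 298 with an offset of 10, 310 with an intensity trend and robust variances, 129 with a dye term per slide, 92 with the authors' deposited table, 431 with the replicate block at its estimated correlation, and 0 with dye-swapped arrays averaged as a replicate block or with slide 2 only. Leaving out each array in turn gave 67 to 140 calls: 140, 113, 104 and 123 without slide 1 arrays 1 to 4, and 67, 76, 116 and 116 without slide 2 arrays 1 to 4. Of the 92 calls with the deposited table, 69 were among the 196. Falls made up 86.8% to 99.0% of the calls wherever any were made. All 43 called probes that were named kept their sign, whereas 11 of the 21 uncalled probes of listed genes had both signs. Among these, ZmSGO1 ran from -0.34 to 0.14, and AM1 probes ran from -0.23 to 0.14 and from -0.36 to 0.13. The remaining AM1 probe was negative in all 21 settings, from -0.74 to -0.25, and was called in 0 of them.

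The count of 12 probes whose effects differed was 4 with processed signals, 20 with an offset of 10, 4 with median centring, 22 with scaling, 64 with an intensity trend, 47 probes with the replicate block at its estimated correlation and 101 with the deposited table. It was 0 with dye-swapped arrays averaged (2512 probes at an unadjusted p under 0.05), with slide 2 only (2360) and with separate dye terms for the slides (2401), and 0 to 3 without any 1 array. The causes of these shifts were not tested. Signals near background limit the size of the deepest falls.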
